A study of Mus musculus with 8 samples.

Results

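Genomic imprinting is the expression of a gene mainly from the copy inherited from 1 parent. The choice is carried by DNA methylation that the egg or the sperm lays down at imprinting control regions and that is kept through development, and many imprinted genes act on fetal growth, the placenta and the developing brain. In the brain they include the domain of Prader-Willi and Angelman syndromes (Snrpn, Ndn, Magel2, Ube3a) and genes of growth control such as Igf2, Grb10 and Cdkn1c. The genes described here are 42 such genes outside the Dlk1-Dio3 region, taken as a list of symbols and not for their values. A gene was measured through probe sets annotated with exactly 1 symbol, and 36 of the 42 had 1 such probe set each, of 19938 genes of the arrays measured in that way. They were divided into 18 paternally expressed genes (16 measured), 20 maternally expressed genes (17 measured) and 4 whose expressed allele depends on the transcript or the tissue (Grb10, Gnas, Blcap and Inpp5f; 3 measured). Within the maternal class, Commd1, Cd81, Tssc4, Copg2, Trappc9, Kcnk9 and Ppp1r9a are imprinted in some tissues only. A class therefore does not say that a gene is imprinted in adult brain.

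Expression was read in RNA of whole brains taken at postnatal day 70 from male C57BL/6J mice. Their mothers received 2 subcutaneous injections of ethanol at 2.5 g/kg, or of saline, on each of 2 days of pregnancy, and the days were either gestational days 8 and 11 (early exposure) or gestational days 14 and 16 (late exposure). Early ethanol, early saline, late ethanol and late saline had 2 arrays each, and every array held a pool of RNA from 3 males of different litters, so a p-value measures the spread between 2 pools. Levels are log2 values of the deposited table, and a difference is the mean of the 2 ethanol arrays minus the mean of the 2 saline arrays of the same timing, with its standard error (SE) and unadjusted p from limma. The arrays of the 2 timings appear to have been normalized apart, so no level was set against a level of the other timing. In whole tissue, fewer cells of a type and less RNA per cell cannot be told apart, and the arrays do not tell the 2 parental copies of a gene apart.

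Values could not be given for 6 genes of the list. H19, the maternal noncoding RNA next to Igf2, had no probe set by its symbol, and neither had Zrsr1 or Slc22a3. Snrpn, Ube3a and Gnas had only probe sets that carry the symbols of several genes, so their values were not given. The background level of an array was set at the 95th percentile of its 1210 probe sets for olfactory and vomeronasal receptors, which are mostly silent in brain. It ranged from 6.41 to 6.55 over the early and from 7.28 to 7.70 over the late arrays. Of the 36 measured genes, 22 were above it in all 8 arrays, and 12 were at background in all 8, namely the paternally expressed Magel2, Mkrn3, Peg12 and Slc38a4 and the maternally expressed Asb4, Calcr, Kcnq1, Cdkn1c, Phlda2, Slc22a18, Ascl2 and Commd1. The other 2 were Zim1, above background in the 4 early arrays and in 0 of the late arrays, and Tssc4, above it in the 4 early and in 2 late arrays. Of the paternally expressed genes 12 of 16 were above background in all 8 arrays, against 7 of 17 maternally expressed genes. All 8 astrocyte, all 8 neuron and the 7 measured oligodendrocyte markers were above background in every array.

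After early exposure, 0 of the 36 genes passed an adjusted p of 0.05 in limma, as did 0% of the 23410 probe sets tested, and 0 passed an unadjusted p of 0.05, which 1.71% of all probe sets did. After late exposure both counts were again 0 of 36, against 0% and 2.49% of all probe sets. With a change of at least 1.2-fold added to the unadjusted p, the shares of all probe sets were 0.923% (early) and 1.16% (late), and 0 of the imprinted genes were among them. The smallest unadjusted p was 0.0982 after early and 0.0746 after late exposure, both for Zim1, and every adjusted p was 1. The largest differences were 0.21 (early, Mest) and 0.21 (late, Zim1) on the log2 scale, where 1.2-fold corresponds to 0.26. Across the genes the SE ran from 0.0756 to 0.176.

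These SEs set what the arrays could have shown. The 95% interval of the difference lay within 1.2-fold either way for 15 genes after early exposure (33.4% of all probe sets) and for 12 after late exposure (29.8% of all probe sets). It lay within 1.5-fold either way for all 36 genes at both timings, as it did for 95.7% (early) and 95.4% (late) of all probe sets. These are intervals of single genes, with no adjustment for their number. The count within 1.5-fold fell to between 33 and 35 genes with 1 array of the same timing left out. The median half-width of the intervals was 0.21 on the log2 scale, so a smaller difference in a typical gene of the list could not be told from 0, as the plot of all 36 differences shows.

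**Figure D1:**
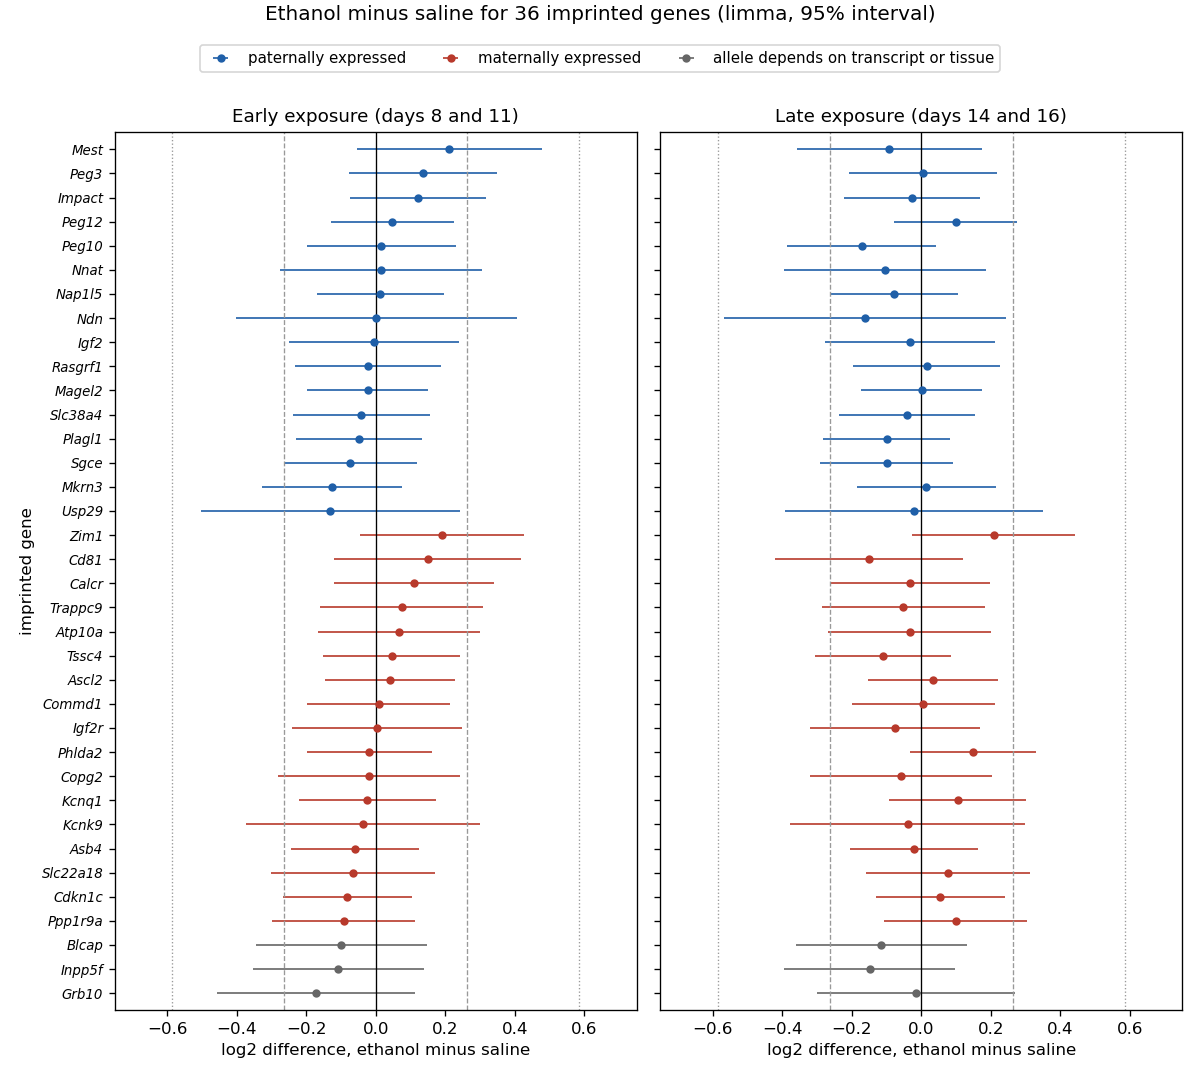
Difference between ethanol and saline (x axis, log2 scale) for the 36 measured imprinted genes (y axis), with 95% intervals from limma, after early (left) and late (right) exposure, with dashed lines at 1.2-fold and dotted lines at 1.5-fold in either direction. All 36 intervals include 0 and none reaches the dotted lines, and the largest differences are those of Mest (early, 0.21) and Zim1 (late, 0.21).

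By parental class, 8 of 16 paternally expressed genes were higher and 8 lower after early ethanol, with a median difference of -0.0015, and 9 of 17 maternally expressed genes were higher and 8 lower, with a median of 0.0035. The median of all 23410 probe sets was -0.020. After late ethanol, 5 paternally expressed genes were higher and 11 lower (median -0.037), and 8 maternally expressed genes were higher and 9 lower (median -0.022), beside a median of -0.0067 over all probe sets. The 3 genes without a fixed class, Grb10, Blcap and Inpp5f, were lower at both timings, with medians of -0.11 (early) and -0.11 (late) and no gene past the test. The median size of the difference regardless of sign was 0.054 over the 36 genes and 0.058 over all probe sets after early exposure, and 0.066 and 0.069 after late exposure. In 31 of 36 genes (early) and 27 of 36 (late) the larger gap between 2 arrays of 1 group exceeded the difference between the groups.

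The late arrays divided the genes by their level. Of the 22 genes above background in the 4 late arrays, 19 were lower and 3 higher after late ethanol, and of the 13 genes at background in those 4 arrays, 10 were higher and 3 lower. All probe sets showed the same division, with 72.7% of the 11201 above background lower and 69.5% of the 10601 at background higher. After quantile normalization over all 8 arrays the genes above background were 14 lower and 8 higher and those at background 7 lower and 6 higher, and all probe sets were 53.8% lower above background and 51.0% higher at background. With each array centred on its median they were 21 lower and 1 higher above background and 6 lower and 7 higher at background. All probe sets kept the division under median centring, at 80.2% lower above background and 59.7% higher at background. Quantile normalization gives every array the same distribution of values, so its smaller division cannot show where the division came from. The division was shared with all probe sets, and its cause was not tested. After early exposure 13 of the 24 genes above background in the 4 early arrays were higher and 11 lower.

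The Igf2 locus was read by Igf2 alone. Igf2 encodes insulin-like growth factor 2, a fetal growth factor expressed from the paternal copy in most tissues. In adult brain Igf2 is made mainly by the choroid plexus and the meninges, where its paternal class need not hold and was not tested. It stood at 9.30 and 9.08 in the early ethanol arrays and at 9.31 and 9.09 in the early saline arrays. The late ethanol arrays held 9.45 and 9.41 and the late saline arrays 9.51 and 9.42. The groups overlapped at both timings. In the early arrays the ethanol values nearly coincided with the saline values, and the array numbered 2 was the lower of its pair in both groups. The difference was -0.0049 (SE 0.11, 95% interval -0.25 to 0.24) after early and -0.032 (SE 0.11, interval -0.28 to 0.21) after late exposure. Markers of choroid plexus had median differences of -5.8e-05 (early) and -0.0035 (late) over 10 genes and those of meninges -0.12 and 0.047 over 12 genes. In limma 0 of either list passed an adjusted p, as did 0% of all probe sets. The unadjusted p and 1.2-fold were passed by 1 meninges marker after early and 1 choroid plexus marker after late ethanol, both lower. The shares of all probe sets were 0.923% (early) and 1.16% (late). Of the meninges markers, 11 were lower and 1 higher after early ethanol, and 3 lower and 9 higher after late ethanol. The part of these tissues in the values of Igf2 was not tested.

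CTCF, a protein that binds the unmethylated maternal control region, keeps the parental copies of Igf2 apart where the gene is imprinted. The promoter window of Igf2 is shown because it holds a core of the CTCF motif, found in 12.5% of all genes. The window is not that control region, and the match shows no binding. It runs from 250 bases before to 50 bases after a RefSeq transcript start (GRCm38.p6), at chr7:142658755-142659054 on the minus strand, with its 24 CpG dinucleotides, the sites that DNA methylation uses in mammals, in capitals.
Igf2: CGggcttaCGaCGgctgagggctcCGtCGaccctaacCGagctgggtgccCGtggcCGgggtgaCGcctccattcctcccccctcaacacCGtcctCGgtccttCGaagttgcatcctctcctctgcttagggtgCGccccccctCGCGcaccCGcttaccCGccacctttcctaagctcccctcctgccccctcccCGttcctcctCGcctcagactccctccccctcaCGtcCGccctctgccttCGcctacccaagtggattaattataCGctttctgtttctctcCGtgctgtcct

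Neither Igf2r nor any measured gene of the insulin-like growth factor pathway passed an unadjusted p of 0.05. Igf2r, the maternally expressed receptor that takes up and degrades IGF2, stood at 8.24 and 8.16 (early ethanol), 8.18 and 8.21 (early saline), 8.66 and 8.77 (late ethanol) and 8.94 and 8.65 (late saline), and the groups overlapped at both timings. The differences were 0.0035 (early) and -0.076 (late). Of 18 measured genes of the pathway outside the list, such as Igf1, its receptor Igf1r and the binding proteins, 4 were higher and 14 lower at either timing, with medians of -0.028 (early) and -0.070 (late). Grb10, an adaptor that restrains insulin and IGF signalling and is expressed from the paternal copy in neurons and the maternal copy in most other tissues, had the lowest early difference of the 36 genes. Its arrays stood at 8.74 and 8.44 (early ethanol) and 8.85 and 8.68 (early saline), and the groups overlapped. That difference was -0.17 (SE 0.12, unadjusted p = 0.203), and it rested on single arrays. It was -0.32 without early ethanol replicate 1 (unadjusted p = 0.0432), -0.021 without early ethanol replicate 2 (unadjusted p = 0.877) and -0.082 without early saline replicate 1. After late exposure Grb10 stood at 8.84 and 8.88 (ethanol) and 8.98 and 8.77 (saline), a difference of -0.014.

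The genes whose pattern over the 8 arrays was most like that of Igf2, after the mean of each timing was subtracted, were Rtn4r (Pearson r = 0.990), Map2k1 (0.987), Sez6l2 (0.984), Fam81a (0.984) and Alkal1 (0.983). Alkal1 was at background in all 8 arrays. Among the imprinted genes the highest values were those of Ndn (0.974), Nnat (0.938) and Copg2 (0.898), and the lowest that of Commd1 (-0.887). These correlations rest on 8 arrays and are a description. The early arrays numbered 1 and 2 lay apart in many of these genes. In 13 of the 36 genes both early arrays numbered 1 lay above both numbered 2, and in 4 below (26.1% and 18.5% of all probe sets). Pituitary markers, 7 genes, averaged 5.81 and 6.93 in the early ethanol arrays numbered 1 and 2 and 5.91 and 6.64 in the early saline arrays, a gap between the same arrays, and the part of pituitary tissue in the pattern was not tested.

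Among the genes of the Prader-Willi and Angelman region, Ndn, Magel2, Mkrn3, Peg12 and Atp10a were measured. Ndn encodes necdin, a protein of the MAGE family abundant in postmitotic neurons and expressed from the paternal copy. Its level was 13.35 and 12.90 in the early ethanol arrays and 13.34 and 12.90 in the early saline arrays, so the 2 pools differed by 0.44 in either group while the group means were almost the same. After late exposure Ndn stood at 13.02 and 12.87 (ethanol) and 13.17 and 13.04 (saline), with both ethanol arrays below both saline arrays. That difference was -0.16 with an SE of 0.18, the widest of the list, and an unadjusted p of 0.385. The SE is shared by both timings and so includes the early gaps of 0.44. Magel2, a regulator of protein trafficking, Mkrn3, which restrains the onset of puberty, and Peg12 were at background in all arrays, with differences between -0.13 (Mkrn3) and 0.048 (Peg12) after early exposure and between 0.0011 (Magel2) and 0.099 (Peg12) after late exposure. Mkrn3 itself stood at 5.82 and 5.99 in the early ethanol arrays and 6.08 and 5.98 in the early saline arrays, and they overlapped. Atp10a, a phospholipid flippase gene with maternal expression in part of the brain, differed by 0.068 (early) and -0.033 (late).

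The same region carries the Snord116 snoRNA genes, which are made from the paternal transcript that begins at Snrpn. The 24 probe sets for this cluster each carried several symbols and are no members of the list, and their response to early exposure was known before the present genes were chosen. Their median level was 13.66 and 13.89 in the early ethanol arrays and 13.28 and 13.33 in the early saline arrays. After early exposure 21 of 24 passed the unadjusted p and 1.2-fold (0.923% of all probe sets), 0 of 24 an adjusted p in limma. Their early differences ran from 0.40 to 0.47 with a median equal to the highest, so many of the 24 held the same value. The 24 are therefore not separate readings. The 5 measured genes of the region had early differences between -0.13 and 0.068, against a median of 0.47 for the snoRNA probe sets. After late exposure the snoRNA median was -0.26, from arrays at 13.57 and 13.32 (ethanol) and 13.37 and 14.03 (saline), and the 5 genes lay between -0.16 and 0.099. The difference between the cluster and the 5 genes was not tested.

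**Figure D2:**
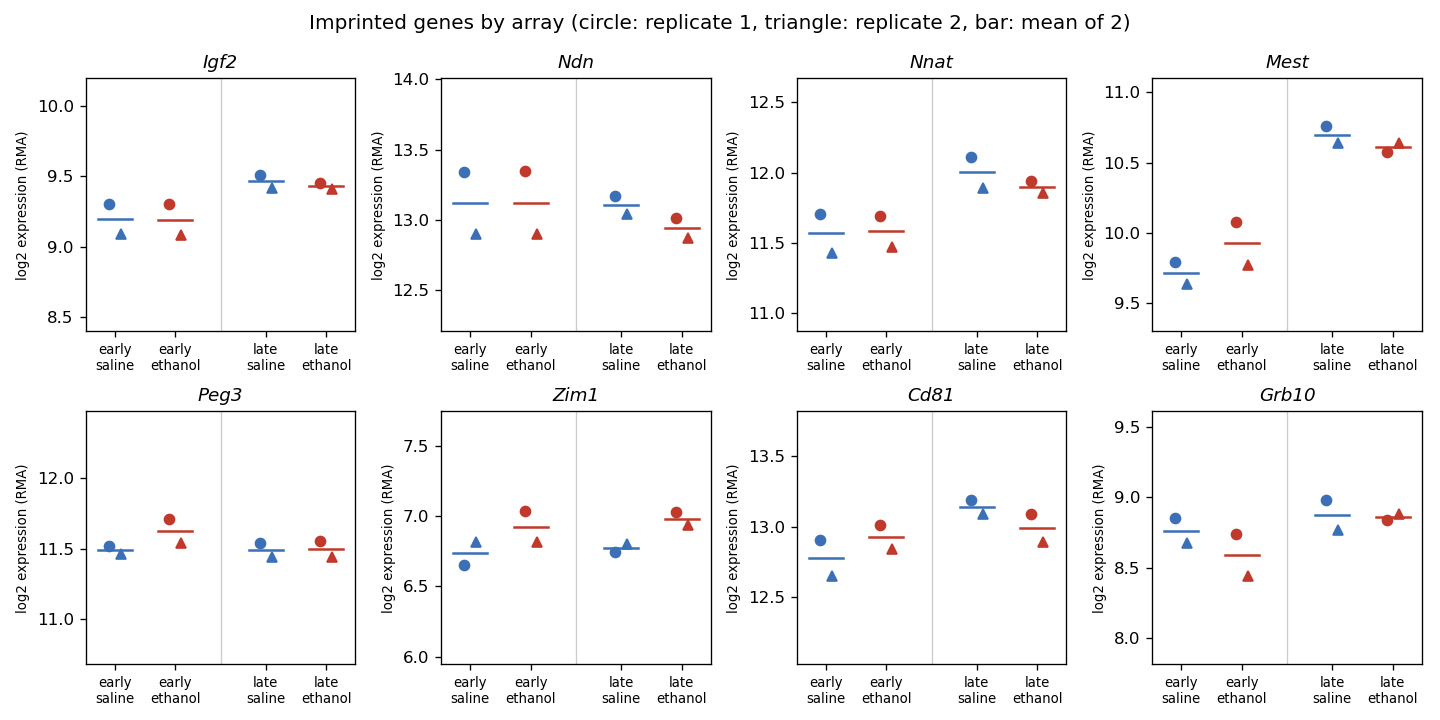
Level (y axis, log2 RMA value, 1.8 units high in every panel) of 8 imprinted genes in each array of the 4 groups (x axis), with saline in blue, ethanol in red, circles for replicate 1, triangles for replicate 2 and a bar for the mean of 2. In Igf2, Ndn and Nnat the early arrays numbered 1 and 2 lie apart in both groups, for Ndn at 13.35 and 12.90 with ethanol and 13.34 and 12.90 with saline, while the ethanol and saline means are close.

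The Peg3 domain on chromosome 7 holds the paternally expressed Peg3 and Usp29 and the maternally expressed Zim1. Peg3 encodes a zinc finger DNA-binding protein linked to maternal behaviour and fetal growth. It stood at 11.71 and 11.54 in the early ethanol arrays and at 11.52 and 11.46 in the early saline arrays, so both ethanol arrays lay above both saline arrays. The difference was 0.14 (SE 0.093, 95% interval -0.076 to 0.35, unadjusted p = 0.177). The late arrays held 11.55 and 11.44 (ethanol) and 11.54 and 11.44 (saline), a difference of 0.0046, and they overlapped. Usp29, which encodes a deubiquitinase and starts next to Peg3 on the other strand, stood at 8.99 and 8.85 (early ethanol), 9.16 and 8.94 (early saline), 9.72 and 9.60 (late ethanol) and 9.93 and 9.42 (late saline), with overlap at both timings and differences of -0.13 and -0.021.

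Zim1, a zinc finger gene next to Peg3, had the smallest unadjusted p of the list at both timings. Its early ethanol arrays stood at 7.04 and 6.82 and the early saline arrays at 6.65 and 6.82, close above the background level and overlapping. The late ethanol arrays stood at 7.03 and 6.94 and the late saline arrays at 6.75 and 6.80, apart from each other but below the background level of every late array. The difference was 0.19 (SE 0.10, unadjusted p = 0.0982) after early and 0.21 (SE 0.10, unadjusted p = 0.0746) after late exposure. The early difference was 0.30 without early ethanol replicate 2 (unadjusted p = 0.0337), but 0.079 without early ethanol replicate 1 (unadjusted p = 0.518) and 0.11 without early saline replicate 1.

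The Peg3 window is printed because it shares 263 bases with that of Usp29, not shown, on the opposite strand. Peg3 and Usp29 had early differences of opposite sign, 0.14 and -0.13, neither past the test. The Zim1 window is printed because Zim1 had the smallest unadjusted p of the list. The Peg3 window (RefSeq, GRCm38.p6, chr7:6730370-6730669, minus strand) holds 13 CpG and the Zim1 window (chr7:6696383-6696682, minus strand) 20, in capitals.
Peg3: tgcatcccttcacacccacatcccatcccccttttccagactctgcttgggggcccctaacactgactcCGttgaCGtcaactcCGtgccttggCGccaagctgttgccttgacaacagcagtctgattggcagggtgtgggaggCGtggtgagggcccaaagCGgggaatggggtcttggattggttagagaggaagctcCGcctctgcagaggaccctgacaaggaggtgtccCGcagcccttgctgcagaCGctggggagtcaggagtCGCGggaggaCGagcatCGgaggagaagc
Zim1: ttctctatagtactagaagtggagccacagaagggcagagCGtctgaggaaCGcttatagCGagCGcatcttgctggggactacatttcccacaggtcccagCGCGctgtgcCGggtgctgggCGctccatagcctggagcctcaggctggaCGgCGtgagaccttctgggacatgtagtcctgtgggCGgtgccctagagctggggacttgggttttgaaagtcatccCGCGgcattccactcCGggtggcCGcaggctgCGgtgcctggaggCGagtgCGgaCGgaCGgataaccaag

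Mest, also called Peg1, is a paternally expressed gene for an enzyme of the alpha/beta hydrolase family active in fetal growth and fat tissue. It had the largest early difference of the list. The early ethanol arrays stood at 10.08 and 9.77 and the early saline arrays at 9.79 and 9.64, and the lower ethanol array lay just below the higher saline array. The difference was 0.21 (SE 0.12, 95% interval -0.054 to 0.48, unadjusted p = 0.105). In the late arrays Mest stood at 10.58 and 10.64 (ethanol) and 10.76 and 10.64 (saline), a difference of -0.091. The early effect minus the late effect was 0.30 (unadjusted p = 0.101). The early difference of Mest was 0.36 without early ethanol replicate 2 (unadjusted p = 0.0162), but 0.058 without early ethanol replicate 1 (unadjusted p = 0.641) and 0.13 without early saline replicate 2. Copg2, a maternally expressed neighbour that encodes a coatomer subunit and is transcribed towards Mest, differed by -0.019 (early) and -0.057 (late).

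The Mest window is printed because it holds 2 matches of TGCCGC, the motif of ZFP57, a zinc finger protein that keeps methylation at imprinting control regions. It lies at chr6:30737800-30738099 on the plus strand (RefSeq, GRCm38.p6) and has 17 CpG, in capitals.
Mest: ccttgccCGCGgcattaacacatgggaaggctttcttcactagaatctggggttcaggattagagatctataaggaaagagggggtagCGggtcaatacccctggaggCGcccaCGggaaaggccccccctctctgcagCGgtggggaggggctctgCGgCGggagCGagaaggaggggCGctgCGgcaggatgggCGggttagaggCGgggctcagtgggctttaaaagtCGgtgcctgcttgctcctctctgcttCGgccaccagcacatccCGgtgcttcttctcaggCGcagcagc

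Promoter windows from RefSeq were used for 34 of the 42 genes, and where a gene had several the one with the most CpG was used. Impact was left out of the listed windows by its location, while the background of all genes was not restricted in that way. The counts, medians and shares for the listed genes therefore do not cover Impact. The median was 17.5 CpG per 300 bases, against 8 over 27025 genes. It was 15 for 15 paternally expressed genes (range 5 to 26), 23 for 15 maternally expressed genes (range 2 for Slc22a18 to 48 for Ppp1r9a) and 28.5 for the 4 others (range 15 to 45). TGCCGC was found on either strand in 10 of 34 windows (29.4%), those of Calcr, Commd1, Copg2, Grb10, Mest, Nap1l5, Nnat, Plagl1, Snrpn and Zim1, and in 12.2% of all genes. GGNGGCAG, a core of the CTCF motif, was found in 7 of 34 (20.6%), those of Ascl2, Cd81, Commd1, Grb10, Igf2, Phlda2 and Rasgrf1, and in 12.5% of all genes. GCCATNTT, a motif of YY1, was found in 3 of 34 (8.82%), those of Mkrn3, Slc38a4 and Ube3a, and in 6.26% of all genes. The first 2 motifs can share letters, and letters rich in C and G are more frequent in windows with many CpG. A match is a description of the sequence and shows no binding.

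Several of the imprinted genes carry a miRNA gene within their bounds. The mature miRNAs of the measured ones are shown because Mir483 and Mir335 differed from their hosts in sign or size, with 1 arm for each miRNA of Calcr. The seed, bases 2 to 8, is in capitals, and no 2 of the sequences shown share it. Mir483 lies in Igf2 (its 3p and 5p arms at chr7:142654932-142654952 and chr7:142654968-142654989, minus strand), Mir335 in Mest (5p and 3p arms at chr6:30741314-30741336 and chr6:30741354-30741375, plus strand), and Mir489 and Mir653 in Calcr (RefSeq, GRCm38.p6).
mmu-miR-483-3p: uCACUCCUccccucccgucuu
mmu-miR-483-5p: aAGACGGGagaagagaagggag
mmu-miR-335-5p: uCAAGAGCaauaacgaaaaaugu
mmu-miR-335-3p: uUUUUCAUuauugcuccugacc
mmu-miR-489-3p: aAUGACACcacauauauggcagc
mmu-miR-653-5p: gUGUUGAAacaaucucuacug

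The miRNA probe sets carry the symbol of the miRNA gene and do not tell its hairpin from the mature strands. Mir483 was above background in all 8 arrays and stood at 8.05 and 7.80 (early ethanol) and 8.12 and 8.27 (early saline), with both ethanol arrays below both saline arrays. Its early difference was -0.27 (SE 0.23, unadjusted p = 0.267), beside -0.0049 for Igf2. In the late arrays Mir483 stood at 9.17 and 8.69 (ethanol) and 8.92 and 8.25 (saline), overlapping, with a difference of 0.35 (unadjusted p = 0.162). The early effect minus the late effect was -0.62 (unadjusted p = 0.0891, adjusted p = 1 in limma). Mir335 was at background in 7 of 8 arrays, the exception being early saline replicate 1, and stood at 6.37 and 6.21 (early ethanol) and 6.51 and 6.55 (early saline). Its early difference of -0.24 (unadjusted p = 0.198) had the opposite sign to that of Mest. The difference between a miRNA gene and its host was not tested. Mir489 and Mir653 were at background with early differences of -0.066 and -0.035, and the miRNA genes of H19 (Mir675) and Usp29 (Mir3099) had no probe set by their symbols.

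**Figure D3:**
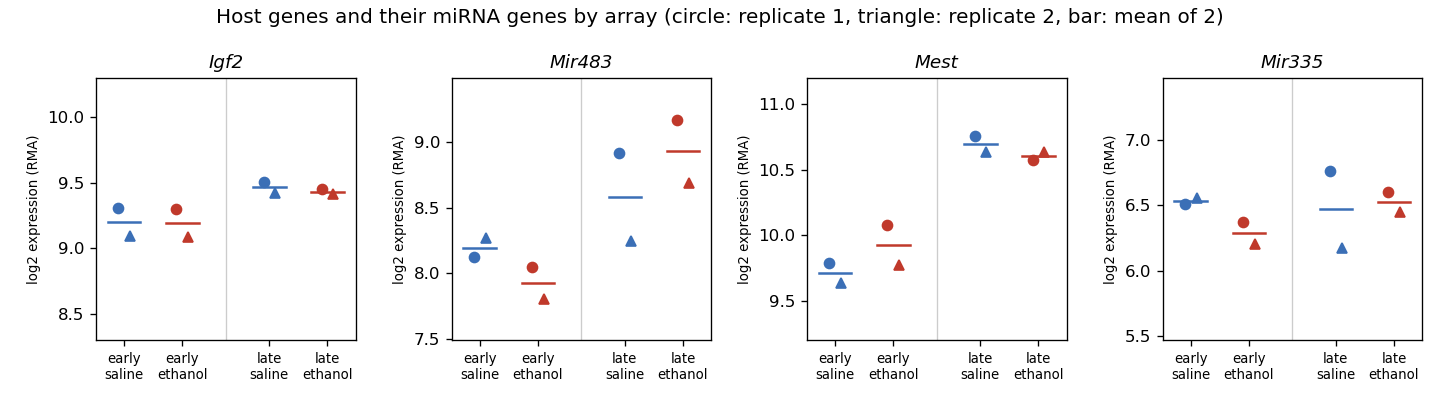
Level (y axis, log2 RMA value) of the host genes Igf2 and Mest and of the miRNA genes Mir483 and Mir335 within them, in each array of the 4 groups (x axis), with saline in blue, ethanol in red, circles for replicate 1, triangles for replicate 2 and a bar for the mean of 2. The early ethanol arrays of Mir483 (8.05 and 7.80) lie below the early saline arrays (8.12 and 8.27) while those of Igf2 overlap.

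The neuronatin locus was measured by both its genes. Nnat, a paternally expressed gene for a small membrane protein of the endoplasmic reticulum in neurons and endocrine cells, lies within an intron of Blcap. It stood at 11.69 and 11.47 in the early ethanol arrays and 11.71 and 11.43 in the early saline arrays, with overlap and a difference of 0.014 (SE 0.13). The late arrays held 11.94 and 11.86 (ethanol) and 12.11 and 11.89 (saline), a difference of -0.10 (unadjusted p = 0.433), again with overlap. Blcap, whose major brain transcript comes from the maternal copy, stood at 8.08 and 8.00 (early ethanol) against 8.16 and 8.12 (early saline), with the groups apart. Its differences were -0.099 (unadjusted p = 0.385) and -0.11. Inpp5f, an inositol phosphatase gene with a paternally expressed brain transcript, stood at 8.52 and 8.56 (early ethanol), 8.74 and 8.56 (early saline), 8.67 and 8.90 (late ethanol) and 9.01 and 8.86 (late saline). Its differences were -0.11 and -0.15, neither past the test.

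In the Peg10-Sgce domain on chromosome 6, Peg10, a gene derived from a retrotransposon and needed in the placenta, stood at 10.14 and 10.21 in the late ethanol arrays and 10.37 and 10.32 in the late saline arrays. The groups did not overlap, and the difference was -0.17 (SE 0.094, 95% interval -0.39 to 0.044, unadjusted p = 0.104), the lowest of the late differences. Its early arrays stood at 9.99 and 9.83 (ethanol) and 9.97 and 9.81 (saline), a difference of 0.016. Sgce, which encodes epsilon-sarcoglycan and is altered in myoclonus dystonia, shares a promoter region with Peg10 and was lower with the groups apart at both timings, by differences of -0.073 and -0.099, neither past the test. Ppp1r9a, which encodes the actin-binding neurabin of synapses, stood at 9.02 and 9.07 (early ethanol) and 9.17 and 9.11 (early saline), apart, and at 9.45 and 9.39 (late ethanol) and 9.42 and 9.22 (late saline), with overlap. Its differences were -0.093 and 0.099, of opposite sign. Asb4 and Calcr, the calcitonin receptor, were at background, with early differences of -0.060 and 0.11.

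The Kcnq1 domain holds maternally expressed genes that limit growth of the fetus and placenta. Of its 7 genes, 5 were at background in all arrays, namely Kcnq1 (a potassium channel), Cdkn1c (a cell cycle inhibitor), Phlda2, Slc22a18 and Ascl2 (a transcription factor of the trophoblast). The early arrays of Cdkn1c, at 6.02 and 6.12 (ethanol) and 6.15 and 6.14 (saline), did not overlap and gave a difference of -0.082 (unadjusted p = 0.343). Phlda2 stood at 5.66 and 5.57 in the late ethanol arrays and 5.45 and 5.48 in the late saline arrays, apart, with a difference of 0.15 (unadjusted p = 0.0931). Kcnq1 stood at 6.26 and 6.08 (late ethanol) and 6.07 and 6.06 (late saline), with a difference of 0.10. The late differences of Slc22a18 and Ascl2 were 0.077 and 0.034, also with the groups apart. All of these levels were under the background level of their arrays.

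Cd81 and Tssc4 were the measured genes of that domain above background in the early arrays. Cd81, a tetraspanin of many cell types that is imprinted mainly in the placenta, stood at 13.01 and 12.84 (early ethanol) and 12.91 and 12.65 (early saline), overlapping. It stood at 13.09 and 12.89 (late ethanol) and 13.19 and 13.09 (late saline), nearly touching but apart. The differences were 0.15 after early and -0.15 after late exposure, with a gap between the early and late effects of 0.30 (unadjusted p = 0.109). After quantile normalization over all arrays the early difference of Cd81 was -0.030, so its sign depends on the scaling. The 7 measured oligodendrocyte markers were all higher after early (median 0.15) and all lower after late ethanol (median -0.12), and the part of oligodendrocytes in the values of Cd81 was not tested. Tssc4 stood at 7.23 and 7.33 (late ethanol) and 7.46 and 7.32 (late saline), overlapping, with differences of 0.046 (early) and -0.11 (late).

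The remaining genes lie alone or in pairs. Impact, an inhibitor of the kinase GCN2 and abundant in neurons, stood at 11.87 and 11.84 in the early ethanol arrays and 11.71 and 11.75 in the early saline arrays, apart, with a difference of 0.12 (SE 0.085, unadjusted p = 0.187). Its late arrays, 12.12 and 11.98 (ethanol) and 12.13 and 12.02 (saline), overlapped. Plagl1, a zinc finger transcription factor that restrains proliferation, stood at 9.13 and 9.17 (late ethanol) and 9.28 and 9.22 (late saline), apart, with a difference of -0.10 (unadjusted p = 0.243). Peg12 was higher with the groups apart at both timings, at 6.12 and 6.15 against 6.08 and 6.09 (early) and 6.50 and 6.43 against 6.33 and 6.40 (late), all of them at background. Nap1l5, Rasgrf1 (a Ras exchange factor of memory), Kcnk9 (a potassium channel), Trappc9 (a trafficking subunit) and the background genes Commd1 and Slc38a4 had early differences between -0.041 (Slc38a4) and 0.075 (Trappc9) and late differences between -0.078 (Nap1l5) and 0.016 (Rasgrf1).

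Counted over the list, both ethanol arrays lay above both saline arrays in 5 genes after early exposure (Peg3, Impact, Peg12, Atp10a and Calcr; 7.5% of all probe sets) and below them in 6 (Sgce, Asb4, Ppp1r9a, Cdkn1c, Blcap and Inpp5f; 18.9% of all probe sets). After late exposure they lay above in 7 genes (12.7% of all probe sets), namely Mkrn3, Peg12, Kcnq1, Phlda2, Slc22a18, Ascl2 and Zim1, and below in 6 (15.7% of all probe sets), namely Ndn, Peg10, Sgce, Plagl1, Cd81 and Nap1l5. All 7 of the late genes with higher ethanol arrays were at background in the late arrays, and all 6 with lower ethanol arrays were above it. All probe sets, with groups apart or not, leaned the same way. After late ethanol 72.7% of those above background were lower and 69.5% of those at background were higher. These counts include genes such as Impact, with a difference of 0.12, and Mkrn3, with a late difference of 0.015, so separation of 2 arrays from 2 says little of size.

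The 2 timings share no control array, and their differences can be set side by side. Of the 36 genes, 5 were higher at both timings, 11 lower at both and 20 of opposite sign. Across the 36 genes the early and late differences had a Pearson r of 0.020 and a Spearman rho of -0.11, against a Pearson r of -0.20 across all probe sets, and genes of the same arrays are not independent points. The early effect minus the late effect passed an unadjusted p of 0.05 in 0 of 36 genes (2.06% of all probe sets) and an adjusted p in 0 (0% of all probe sets). No gene with its groups apart in 1 direction after early exposure had them apart in the other direction after late exposure. The share of all probe sets with such a reversal is not given here, so this count cannot show agreement between the timings.

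**Figure D4:**
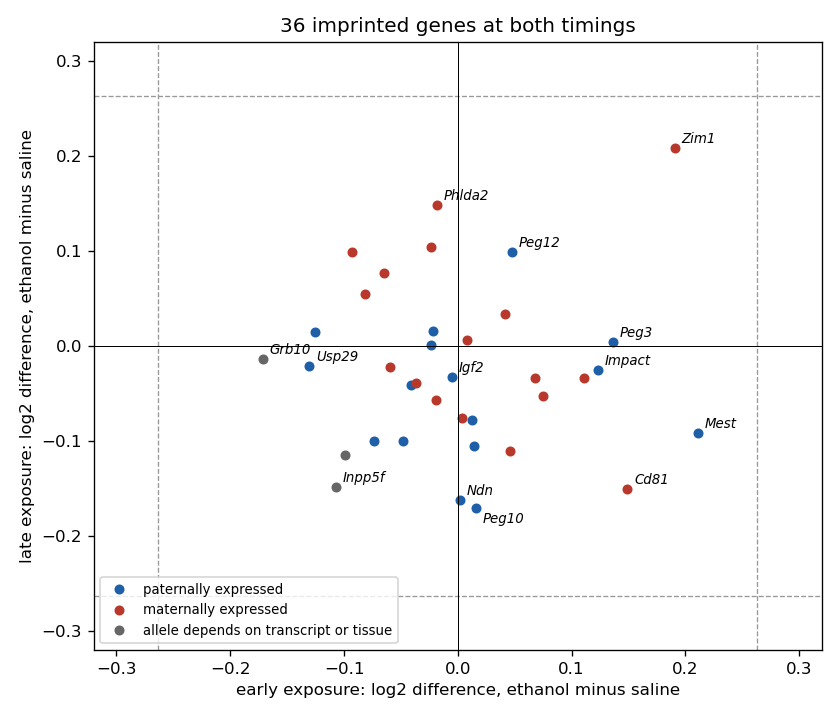
Difference between ethanol and saline after early (x axis) and late (y axis) exposure, log2 scale, 1 point for each of the 36 measured imprinted genes, coloured by parental class, and dashed lines mark 1.2-fold. All 36 points lie inside the dashed lines, Zim1 (0.19 and 0.21) lies furthest into the upper right, and Mest (0.21 and -0.091) and Cd81 (0.15 and -0.15) lie at the lower right.

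Genes that set or keep imprints, and imprinted genes outside the list, were read in the same fit. Over all 23410 probe sets, 13988 were lower and 9417 higher after early ethanol, with a median of -0.020, and 0.923% passed the unadjusted p and 1.2-fold. Of 20 imprint maintenance factors, such as Dnmt1, Zfp57, Trim28 and Ctcf, 15 were lower and 5 higher after early ethanol (median -0.061), and 1 passed the unadjusted p and 1.2-fold. That gene was Eed, a subunit of the Polycomb complex that methylates histone H3, which stood at 8.21 and 8.20 (early ethanol) and 8.53 and 8.41 (early saline), a difference of -0.26 (unadjusted p = 0.0411). After late ethanol 9 were higher and 11 lower and 0 passed, beside 11071 higher and 12330 lower of all probe sets, of which 1.16% passed. Of 33 measured imprinted genes outside the list, 25 were lower and 8 higher after early ethanol (median -0.051), and 2 passed the unadjusted p and 1.2-fold, both lower. These were Th, tyrosine hydroxylase, at 8.43 and 8.60 (ethanol) against 8.90 and 9.20 (saline), and Dcn, the matrix proteoglycan decorin, at 9.91 and 10.05 against 10.33 and 10.26. After late ethanol 13 were higher and 20 lower, and 1 passed, Qpct, glutaminyl cyclase. It stood at 7.55 and 7.95 against 8.20 and 8.00, with 3 of 4 late arrays above background. As with the parental classes, a place among these imprinted genes does not say that a gene is imprinted in adult brain.

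Th and Dcn are themselves members of marker lists, so the list values given here include them and are no separate support. Th is also a marker of the olfactory bulb, where a class of interneurons makes dopamine, and the 12 olfactory bulb markers averaged 7.47 and 7.73 in the early ethanol arrays and 8.03 and 8.22 in the early saline arrays. All 12 were lower after early ethanol, and 9, Th among them, had an unadjusted p under 0.05, against 1.71% of all probe sets. Dcn is also a marker of meninges, a list that averaged 7.32 and 7.31 (early ethanol) and 7.45 and 7.40 (early saline), with 11 of 12 lower. Only 1 of the 12, Dcn itself, had an unadjusted p under 0.05. The part of these tissues in the values of Th and Dcn was not tested. Among the 36 genes of the list, the lower bulb markers went with early differences between -0.17 (Grb10) and 0.21 (Mest), none past an unadjusted p of 0.05. Their part in these values was not tested either.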

How the data were processed

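The authors hybridized RNA of whole brains to Affymetrix Mouse Gene 1.0 ST arrays, 8 in all and 2 for each of the 4 groups. The deposited log2 values are RMA summaries that the authors made, quantile normalized and GC adjusted, in Partek Genomics Suite (6.6 in the submitters' processing notes). The processing of the late arrays is not described in the methods, and the genome build of the annotation is not given in the sources used here. Of 35556 probe sets, 23410 carried a gene symbol (21789 a single one) and were tested. Identical probe sets between any pair of arrays numbered at most 6.

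Ethanol was compared with saline within a timing with limma 3.58.1 under R 4.3.3. A single fit to the 8 arrays held the 4 group means, with moderated variances and Benjamini-Hochberg adjustment over 23410 probe sets. The thresholds were p under 0.05 and, unadjusted, also 1.2-fold. The precision of every value is limited by the number of arrays. The study's methods name an analysis of variance, which was run as an alternative, beside a fit to the 4 arrays of a timing, a replicate block, median centring, quantile normalization, a filter on dim probe sets, all probe sets and leaving out each array.

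The imprinted genes and the other lists were chosen with earlier results of these data known. Values by array were given for Igf2, Peg3, Mest, Nnat, and the 5 genes per timing and direction with the smallest unadjusted p. From the other lists, genes past the unadjusted p and 1.2-fold were named. The other genes shown by array were chosen after their values were seen. Parental classes were taken from textbook knowledge, since the arrays do not separate the alleles. Sequences came from RefSeq (GRCm38.p6), and plots were made in Python 3.11.15 with matplotlib 3.10.9.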

Additional observations from a re-analysis of the deposited data

How the results depend on the processing

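In all settings that left out no array of a timing, 0 of the 36 imprinted genes passed the unadjusted p and 1.2-fold at either timing. The number that passed after early exposure ran from 0 to 2 with 1 array left out, namely Grb10 without early ethanol replicate 1 and Mest and Zim1 without early ethanol replicate 2, and after late exposure it stayed at 0. With the replicate block the count was 0 at both timings, and no call changed. The arrays with the same number deviated together in the early groups (correlation of deviations 0.466 over all probe sets) and oppositely in the late groups (-0.464), and the labels do not say that the numbers mark shared animals. With the late numbers crossed in the replicate block, a choice made after the data were seen, 1 gene after early and 0 after late exposure had an unadjusted p under 0.05. By the analysis of variance on 4 arrays, 1 gene had an unadjusted p under 0.05 after early exposure (Impact, 0.0449) and 0 after late exposure. The shares of all probe sets in these other settings are not given here, so the counts cannot be set against a background rate.

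Under quantile normalization 6 of 36 signs turned after early and 9 of 36 after late exposure, with sizes up to 0.15 and 0.039, and under median centring 3 and 5. With 1 array of the timing left out, 4 to 8 signs turned after early and 4 to 11 after late exposure, with sizes up to 0.075 and 0.11. Those turned under quantile normalization included Cd81 (early, -0.030), Igf2 (early 0.010, late 0.027) and Nnat (early, -0.031), and those under median centring Peg3 (late, -0.017). Centring also moved the median of the maternally expressed genes after early exposure to -0.0066 and the number of genes higher after late ethanol from 13 to 8 of 36. With 1 array left out, the differences ran from -0.11 to 0.10 (Igf2, early), from -0.076 to 0.013 (Igf2, late), from -0.13 to 0.15 (Nnat, early), from -0.21 to 0.0054 (Nnat, late) and from -0.053 to 0.062 (Peg3, late). The median of the maternally expressed genes ran from -0.023 to 0.043 (early) and from -0.089 to 0.057 (late), and that of the paternally expressed genes from -0.051 to 0.055 (early). The number of genes with an interval within 1.5-fold, counted after the data were seen, was 33 to 34 after early and 34 to 35 after late exposure with 1 array of the timing left out, against 36 at either timing with all arrays. Leaving out the lowest 25% of probe sets removed 5 genes, all at background, and left 31. Each gene had 1 probe set, so averaging probe sets changed nothing. The cause of these shifts was not tested. Signal over background limits the 12 genes at background in all arrays, whose differences need not reflect expression.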
